A study of Mus musculus with 4 samples.

Results

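Arc and 9 transcription factor genes that neurons switch on within minutes of activity were followed in cultured mouse cortical cells in which CTCF was knocked down. The 10 genes were taken by name from a list and looked up among the 37437 Ensembl genes of the deposited tables. The list held the effector gene Arc, the zinc finger factors Egr1, Egr2, Egr3 and Egr4, the AP-1 subunits Fos, Fosb and Junb, the bHLH-PAS factor Npas4 and the orphan nuclear receptor Nr4a1. All 10 were found, and 9 of them were among the 12816 genes that reached 1 TPM in at least 2 libraries and were tested. The 9 were at 2.48 TPM or more in all 4 libraries, so none passed this filter through 1 group alone, whereas Fosb was below it.

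Immediate early genes need no new protein for their induction. Calcium entry and growth factor signals act through kinases on CREB and SRF, which already sit at these promoters, and on their coactivators. The transcripts appear and decay quickly. Arc protein drives endocytosis of AMPA receptors at dendritic spines, while the EGR, AP-1, NPAS4 and NR4A proteins carry the activity signal on to later genes. In cortex these transcripts are widely used as a readout of recent neuronal firing.

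RNA came from primary mouse cortical culture infected with adeno-associated virus. In the 2 shCTCF libraries the virus knocked down Ctcf, which encodes a zinc finger protein that organises chromatin loops. In the 2 shLAC libraries it was directed at lacZ, a bacterial gene, as the control. The sources used here give no mouse strain, age, promoter or time after infection, and no stimulus to the cultures. They do not say whether the replicates were separate cultures, so the p-values rest on a spread among libraries that may be purely technical.

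Ctcf was at 3.56 TPM in both shCTCF libraries, against 8.49 and 7.32 TPM in the shLAC libraries. It fell to 39.1% of the control mean after scaling (log2 fold change -1.13, limma SE 0.0617, adjusted p = 0.0177). Its fold change stayed between -1.18 and -1.10 without each library, but the call over all genes was lost without shLAC replicate 2 (limma adjusted p = 0.0650), shCTCF replicate 1 (limma adjusted p = 0.121) or shCTCF replicate 2 (limma adjusted p = 0.109), while in the protein-coding fit it held without each (limma adjusted p up to 0.0155). TPM is a length-corrected share of a fixed total and keeps no sequencing depth. In shLAC replicate 2, 12 predicted genes, here called satellite-like, held 16.9% of that total. They held 1.05% and 1.51% in the shCTCF libraries and 0.330% in shLAC replicate 1. They were picked for being over 10 times higher in shLAC replicate 2 than in replicate 1, so that direction was fixed by the choice. Their sequence was not checked for satellite repeats. The median log2 fold change of all tested genes was 0.17 as deposited. Levels below are therefore scaled TPM, in which each library is divided by its median ratio to the geometric mean of the 4, unless called deposited. Fold changes are shCTCF minus shLAC on log2(scaled TPM + 1), which understates changes of low genes. All 8 pan-neuronal markers examined, among them Map2 and Tubb3, passed the filter, whereas 9 of 10 microglial and 6 of 6 endothelial markers stayed below 1 TPM in every library.

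All 10 genes had a lower mean in shCTCF than in shLAC, and 8 of 10 did as deposited, where Egr3 and Egr4 were higher. By log2 fold change 9 of the 9 tested members were lower, where 50.1% of all tested genes were. As deposited 7 of the 9 were lower, where 13.0% of all tested genes were. On scaled values, in 8 of the 10 the higher shCTCF value was still under the lower shLAC value, and in Egr3 and Egr4 the groups overlapped. In bulk RNA, fewer cells of a type and less RNA per cell cannot be told apart. Among the 9 tested members 7 were separated in this way, where 26.1% of all tested genes were lower and 26.9% higher with no overlap. In the deposited values Arc, Egr2 and Fosb, 3 of 10, kept apart, where 3.49% of all tested genes were lower with no overlap and 45.5% higher. Added up, the 10 genes were at 59.2 and 67.6 scaled TPM in shCTCF, against 111 and 80.3 scaled TPM in shLAC, and the deposited sums overlapped, at 64.9 and 71.1 TPM in shCTCF and 116 and 66.8 TPM in shLAC. The median fold change of the 9 tested members was -0.54, beside 0.00 for all tested genes. It was -0.35 as deposited, beside 0.17 for all tested genes, and -0.17 with a fixed total over protein-coding genes, beside 0.33. With 2 libraries against 2, the smallest 2-sided p an exact permutation test allows is 0.333.

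Over all tested genes, limma called 0 of the 9 members at an adjusted p below 0.05, where 0.679% of genes were called lower and 0.367% higher. At an unadjusted p below 0.05, Arc, Egr1, Egr2 and Fos were lower, 4 of 9, as were 1285 of the 12816 tested genes. When protein-coding genes of at least 300 nt were scaled and fitted alone, Arc and Egr2 were called lower, where 2.91% of 11280 genes were called lower and 2.15% higher. Without the 12 satellite-like genes Egr1 was called too (limma adjusted p = 0.0486), where 3.48% were called lower. As deposited, Arc and Egr2 were called lower, where 0.905% of all genes were called lower and 1.92% higher. No member was called higher in any of these fits.

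**Figure D1:**
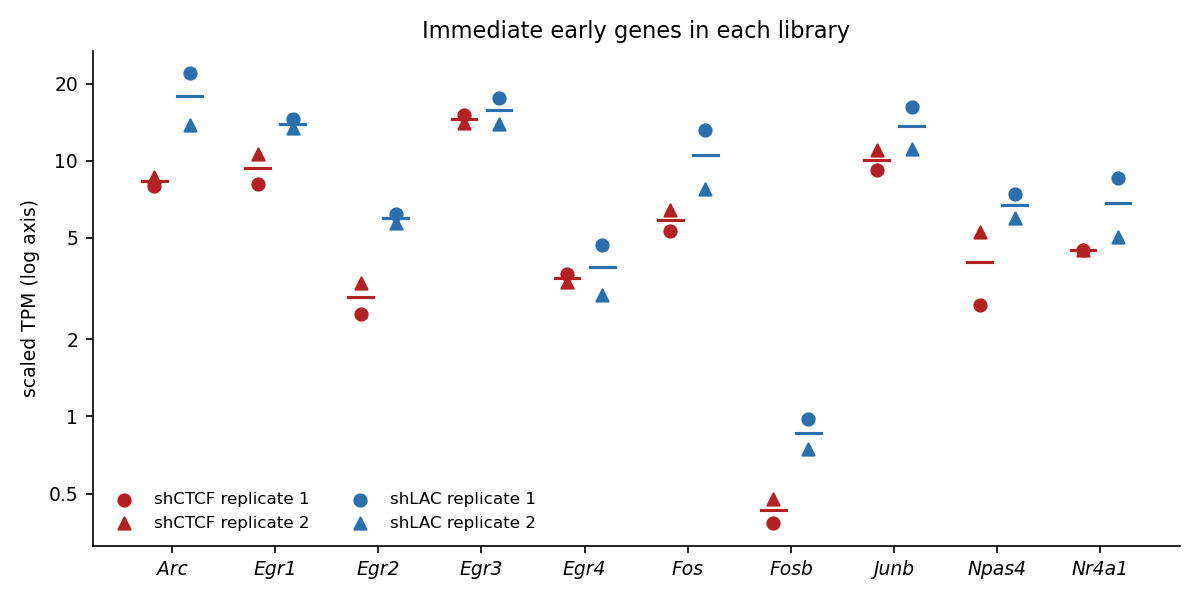
Scaled TPM of the 10 genes in each library on a log axis, shCTCF in red left of shLAC in blue, with circles for replicate 1, triangles for replicate 2 and a line at each group's mean. Arc sits at 7.95 and 8.65 in shCTCF and at 21.9 and 13.8 in shLAC, while the values of Egr3 and Egr4 interleave.

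The 10 genes were compact. Their span in the genome ran between 2469 and 20527 bp with a median of 5287 bp, against a median of 26341 bp over tested protein-coding genes. The longest annotated transcript had a median of 2.5 exons, against 8 over tested protein-coding genes, and Junb had 1. Transcript length was less unusual, with a median of 3010 nt in the members and 3545 nt in tested protein-coding genes.

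Promoter sequence was available for 7 of the 10 genes, from RefSeq on GRCm38.p6, and is shown for the contrast between Egr2, the member with the lowest adjusted p, Egr4, whose groups overlapped, and Fos. Each window holds the 250 bases before a transcription start, 5′ to 3′ on the strand of the gene. Capitals mark CRE half-sites, bound by CREB (TGACG or its complement CGTCA), CArG boxes, bound by SRF, and TATA cores (TATAA or its complement TTATA). The windows are chr10:67537619-67537868 (+ strand) for Egr2, 1 of 5 starts listed for it, chr6:85513590-85513839 (- strand) for Egr4 and chr12:85473640-85473889 (+ strand) for Fos.
Egr2: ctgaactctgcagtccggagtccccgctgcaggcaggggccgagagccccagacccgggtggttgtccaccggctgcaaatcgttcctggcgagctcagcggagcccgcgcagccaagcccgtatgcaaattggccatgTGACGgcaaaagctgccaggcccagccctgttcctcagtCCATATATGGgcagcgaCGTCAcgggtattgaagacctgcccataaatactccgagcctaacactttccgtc
Egr4: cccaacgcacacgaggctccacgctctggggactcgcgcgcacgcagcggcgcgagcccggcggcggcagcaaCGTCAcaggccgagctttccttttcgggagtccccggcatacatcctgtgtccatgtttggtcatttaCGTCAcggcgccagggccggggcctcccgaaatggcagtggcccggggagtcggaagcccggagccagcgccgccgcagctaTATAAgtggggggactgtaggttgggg
Fos: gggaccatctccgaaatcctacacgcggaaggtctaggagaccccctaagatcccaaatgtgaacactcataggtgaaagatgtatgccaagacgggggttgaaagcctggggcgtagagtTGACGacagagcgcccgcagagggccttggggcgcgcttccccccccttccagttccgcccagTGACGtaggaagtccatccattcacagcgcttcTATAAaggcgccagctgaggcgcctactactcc

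CRE half-sites stood in all 7 windows, those of Egr2, Egr4, Fos, Fosb, Junb, Npas4 and Nr4a1, where 17.8% of 32851 RefSeq windows of the same length held one. The full CRE (TGACGTCA) was in 0 of 7, where 1.55% of windows held it. The Egr2 window had 2 half-sites, a CArG box and no TATA core. A CArG box was found in 1 of the 7 windows and in 1.47% of all. Sequence outside the windows was not searched, so Fos and the other genes may have a CArG box further upstream. Arc, Egr1 and Egr3 had no window. The windows of Egr4, Fos and Npas4 each had a TATA core, as did 22.8% of all windows. An EGR site (GCGTGGGCG or GCGGGGGCG, both strands) was in the windows of Fosb and Nr4a1 and in 3.06% of all. A CTCF core (CCNNNAGNNGGC, both strands) was in those of Fos and Nr4a1 and in 7.17% of all. The Npas4 window lies inside an exon of a longer GENCODE transcript. Egr2, with the smallest adjusted p, and Egr4, with overlapping groups, each held 2 CRE half-sites, Egr2 with a CArG box and Egr4 with a TATA core. Whether these letters relate to the fold changes was not tested, and a match describes letters, not binding.

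Arc (ENSMUSG00000022602, chromosome 15, 74669083 to 74672570, - strand, GRCm38) encodes the synaptic effector of the group. It was at 7.95 and 8.65 scaled TPM in the shCTCF libraries, against 21.9 and 13.8 scaled TPM in the shLAC libraries. The deposited values were 8.72 and 9.09 TPM in shCTCF and 22.9 and 11.5 TPM in shLAC. Both knockdown libraries were below both controls on either scale, and the controls differed from each other far more than the knockdown libraries did. The shCTCF mean was 46.5% of the shLAC mean, with a log2 fold change of -0.99 (limma SE 0.220, adjusted p = 0.129, n = 2 per group). In the fit of protein-coding genes alone Arc fell, with a log2 fold change of -0.98 (limma SE 0.187, adjusted p = 0.0411). That call was lost without shCTCF replicate 1 (limma adjusted p = 0.1005) or shCTCF replicate 2 (limma adjusted p = 0.108).

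The place of Arc among the 10 genes differed between the groups. In shLAC it had the highest mean level, 17.9 ± 5.77 scaled TPM (SD, n = 2), although Egr3 was just above it in shLAC replicate 2, at 13.9 against 13.8. In shCTCF its mean of 8.30 ± 0.492 scaled TPM stood below those of Egr3, Junb and Egr1, and the ranges of Arc and Egr1 overlapped there. From the top of the shLAC order down to Egr2, each gene overlapped its neighbour, and only Egr4 and Fosb at the bottom stood apart from the gene above them. In shCTCF, Egr3 stood clear of Junb, Arc of Fos and Fos of Nr4a1, and Egr2 lay just under Egr4.

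The EGR genes encode zinc finger proteins that bind a shared GC-rich site, and their log2 fold changes spread between -0.83 and -0.09. Egr2 (ENSMUSG00000037868, chromosome 10, 67535475 to 67542188, + strand), also known for its role in myelinating Schwann cells, was at 2.51 and 3.34 scaled TPM in shCTCF, against 6.19 and 5.72 scaled TPM in shLAC. The controls lay close together, at a ratio of 1.08, and well above both knockdown libraries. As deposited Egr2 was at 2.75 and 3.51 TPM in shCTCF, against 6.45 and 4.76 TPM in shLAC, still without overlap. The log2 fold change was -0.83 (limma SE 0.120, adjusted p = 0.0745), the lowest adjusted p of the 9 tested members. Egr2 fell in the protein-coding fit, also by 0.83 (limma SE 0.110, adjusted p = 0.0154). This call held without each library in turn (limma adjusted p up to 0.0271).

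Egr1 (ENSMUSG00000038418, chromosome 18, 34859823 to 34864984, + strand), a widely used activity marker, was at 8.07 and 10.6 scaled TPM in shCTCF, against 14.5 and 13.4 scaled TPM in shLAC. Its groups were apart, with the controls again close together. In the deposited values they touched, at 8.85 and 11.2 TPM in shCTCF and 15.1 and 11.1 TPM in shLAC. The log2 fold change was -0.54 (limma SE 0.133, adjusted p = 0.145) over all genes and -0.54 (limma SE 0.117, adjusted p = 0.0567) in the protein-coding fit.

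Egr3 (ENSMUSG00000033730, chromosome 14, 70077203 to 70082614, + strand), which is needed for muscle spindles, was at 15.03 and 14.0 scaled TPM in shCTCF and at 17.6 and 13.9 scaled TPM in shLAC. The lower control fell below both knockdown libraries. Its log2 fold change was -0.10 (limma SE 0.119, adjusted p = 0.693), and 0.093 as deposited.

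Egr4 (ENSMUSG00000071341, chromosome 6, 85511121 to 85513589, - strand) was at 3.59 and 3.35 scaled TPM in shCTCF and at 4.66 and 2.98 scaled TPM in shLAC. Here too the knockdown libraries lay between the controls. Its log2 fold change was -0.09 (limma SE 0.181, adjusted p = 0.825), and 0.065 as deposited. For Egr3 and Egr4 the direction thus turned with the scaling, and neither passed the test on either scale.

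The share of each EGR gene in the summed family was also taken within each library, a measure that no library scaling can move. Egr2 made up 8.59% and 10.6% of the summed TPM of Egr1 to Egr4 in shCTCF, against 14.4% and 15.9% in shLAC. Egr3 made up 51.5% and 44.8% in shCTCF, against 40.9% and 38.6% in shLAC. The groups did not overlap for either gene, whereas they did for Egr1 and Egr4. The shares depend on each other, and their difference between the groups was not tested. Summed, the 4 genes were at 29.2 and 31.3 scaled TPM in shCTCF, against 42.9 and 36.0 scaled TPM in shLAC.

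Set against Egr3 in the same library, 8 of the other 9 genes had lower ratios in both shCTCF libraries than in both shLAC libraries. Of the 8 that were tested 7 did, where 5.95% of all tested genes had lower and 22.8% higher ratios to Egr3 with no overlap. Egr3 was chosen as divisor with its small fold change known, so these counts are a description. Arc over Egr3 was 0.529 and 0.615 in shCTCF, against 1.25 and 0.993 in shLAC. Egr2 over Egr3 was 0.167 and 0.238 in shCTCF, against 0.352 and 0.412 in shLAC. Only Egr4 over Egr3 overlapped, at 0.239 and 0.238 in shCTCF and at 0.265 and 0.215 in shLAC. Because Egr3 is the divisor of all these ratios, they are not independent of each other.

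**Figure D2:**
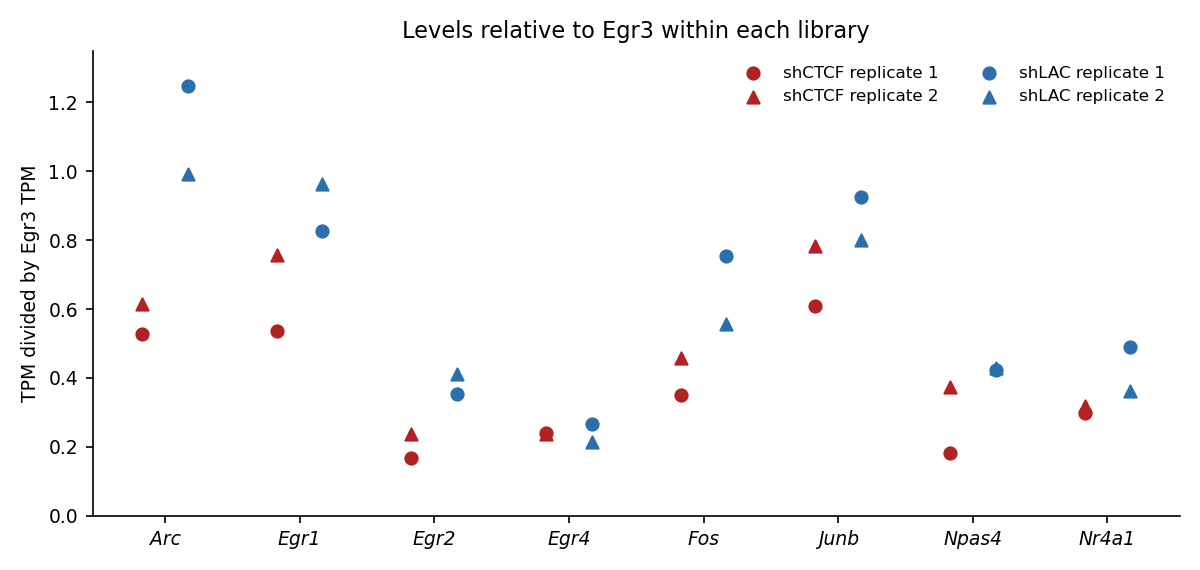
TPM of 8 genes divided by the TPM of Egr3 in the same library, shCTCF in red left of shLAC in blue, circles for replicate 1 and triangles for replicate 2. Fosb over Egr3, below 0.06 in every library, is not drawn. Arc over Egr3 is 0.529 and 0.615 in shCTCF and 1.25 and 0.993 in shLAC, and the Egr4 ratios interleave.

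AP-1 factors are dimers of a FOS and a JUN protein, and 3 inducible subunits were members. Fos (ENSMUSG00000021250, chromosome 12, 85473890 to 85477273, + strand) was at 5.29 and 6.42 scaled TPM in shCTCF, against 13.2 and 7.74 scaled TPM in shLAC. The groups were apart, but shLAC replicate 1 stood far above replicate 2. The log2 fold change was -0.71 (limma SE 0.253, adjusted p = 0.236; in the protein-coding fit SE 0.216 and adjusted p = 0.126). In the deposited values the groups overlapped, at 5.80 and 6.75 TPM in shCTCF and 13.8 and 6.44 TPM in shLAC.

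Fosb (ENSMUSG00000003545, chromosome 7, 19302696 to 19310051, - strand), whose splice product ΔFosB is stable and accumulates with repeated activity, was the lowest of the 10. It was at 0.383 and 0.476 scaled TPM in shCTCF, against 0.979 and 0.745 scaled TPM in shLAC. The groups did not overlap, also as deposited, but at this level Fosb was not tested, and gene-level values cannot show its splice forms. Junb (ENSMUSG00000052837, chromosome 8, 84974484 to 84978718, - strand), which encodes a JUN family protein, was at 9.15 and 11.0 scaled TPM in shCTCF, against 16.3 and 11.1 scaled TPM in shLAC. The nearest values of the groups almost touched, and the log2 fold change was -0.39 (limma SE 0.194, adjusted p = 0.349).

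AP-1 subunits were also set against their sum, and the shares depend on each other because they add up to the whole. Over Fos, Fosb, Junb, Jun, Jund and Fosl2 together, Fos made up 12.01% and 13.6% of the TPM in shCTCF, against 22.4% and 17.4% in shLAC. Jun, a JUN subunit that is no member of the list, made up 19.5% in each shCTCF library, against 12.5% and 16.2% in shLAC. Its level was 8.60 and 9.19 scaled TPM in shCTCF, against 7.37 and 7.21 scaled TPM in shLAC (log2 fold change 0.25, limma adjusted p = 0.125). The summed level of the 6 genes overlapped between groups, at 44.0 and 47.1 scaled TPM in shCTCF and 59.1 and 44.4 scaled TPM in shLAC. Junb made up 20.8% and 23.3% in shCTCF, against 27.5% and 25.03% in shLAC, while Jund made up 36.4% and 34.4% in shCTCF, against 27.3% and 31.7% in shLAC. Fosb stayed under 2% of the sum in every library, and the Fosl2 share overlapped. Jun, Jund and Fosl2, which encode a further FOS family protein and 2 JUN family proteins, were chosen after their values were seen.

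Npas4 (ENSMUSG00000045903, chromosome 19, 4984355 to 4990316, - strand), a factor induced by calcium entry in neurons, was at 2.74 and 5.26 scaled TPM in shCTCF, against 7.42 and 5.95 scaled TPM in shLAC. It was the member whose knockdown libraries differed most, at a ratio of 0.520. The deposited values were 3.00 and 5.53 TPM in shCTCF and 7.73 and 4.95 TPM in shLAC, which overlapped. Its log2 fold change was -0.66 (limma SE 0.271, adjusted p = 0.279; in the protein-coding fit SE 0.233 and adjusted p = 0.164). Without shCTCF replicate 1 it shrank to -0.29 and without shCTCF replicate 2 it was -1.03.

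Nr4a1 (ENSMUSG00000023034, chromosome 15, 101254269 to 101274795, + strand), an orphan nuclear receptor, was at 4.48 and 4.49 scaled TPM in shCTCF, against 8.59 and 5.01 scaled TPM in shLAC. The knockdown libraries were almost equal, and the second control was close to them. As deposited they lay at 4.91 and 4.72 TPM, and shLAC at 8.95 and 4.17 TPM, so the groups overlapped. The log2 fold change of -0.47 (limma SE 0.231, adjusted p = 0.346) shrank to -0.13 without shLAC replicate 1.

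Each of the 10 genes was also higher in shLAC replicate 1 than in shLAC replicate 2, by 1.08-fold in Egr2 to 1.71-fold in Nr4a1. The median of these ratios was 1.39, whereas shCTCF replicate 1 over shCTCF replicate 2 had a median of 0.828. In all 10, and so in 9 of 9 tested members, shLAC replicate 1 held the highest value of the 4 libraries, where 26.5% of all tested genes did. Arc, Egr4, Fos and Nr4a1 exceeded a 1.5-fold gap between the controls, 4 of 9, where 1.24% of all tested genes did. On the log2(scaled TPM + 1) scale, replicate 1 minus replicate 2 was greater for Arc, Egr4, Fos, Junb and Nr4a1 than for 99.1% of tested genes or more, for Egr3 than for 97.8%, for Npas4 than for 96.8%, and for Egr1 and Egr2 than for 81.6% and 79.2%. The gap was not confined to the members. Summed over 14 delayed activity-regulated genes, shLAC replicates 1 and 2 were at 408 and 318 scaled TPM. Over 28 further rapid-response genes they were at 138 and 118. Over 30 upstream kinases and transcription factors they were at 596 and 615, and over 15 genes for Arc protein partners and turnover at 494 and 498.

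The size of the group difference therefore turned on which control was used. Against shLAC replicate 2 alone the log2 fold change of Arc was -0.67 (limma adjusted p = 0.0798), and against shLAC replicate 1 alone it was -1.31 (limma adjusted p = 0.0452, the 1 member called there, where 0.133% of all tested genes were called lower). Egr2 varied least, with -0.78 and -0.89. Against shLAC replicate 2 alone Fos was at -0.35 and Junb at -0.13, and Egr3 and Egr4 turned to 0.064 and 0.17. These fits assume that the remaining control varies as much as the shCTCF libraries.

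**Figure D3:**
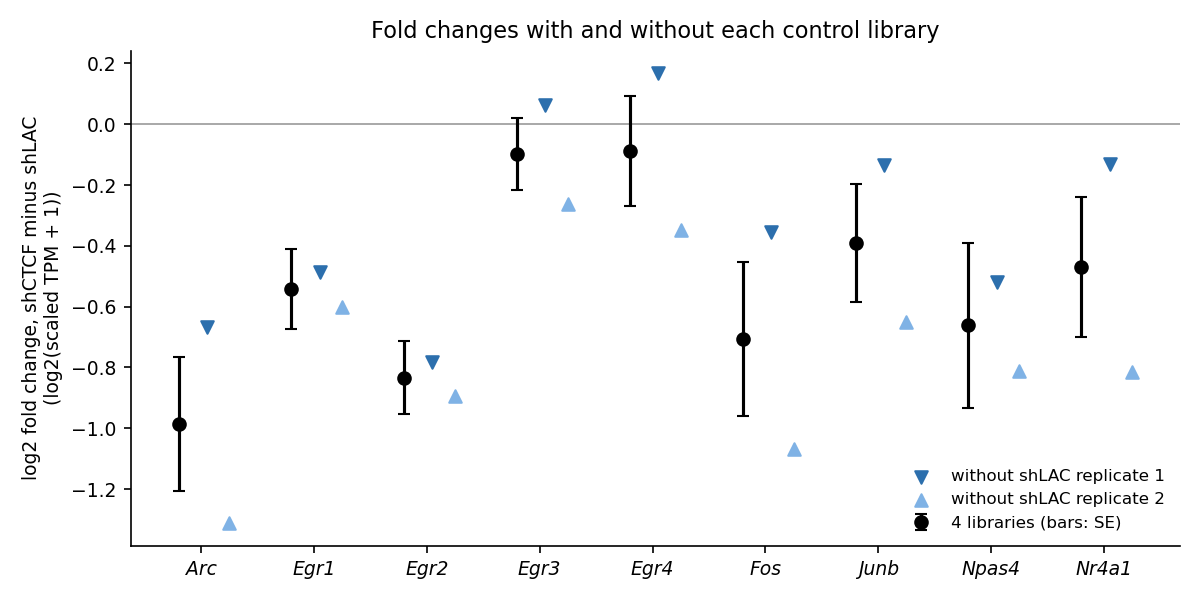
Log2 fold change of the 9 tested members on log2(scaled TPM + 1), shCTCF minus shLAC, with all 4 libraries (black, bars are the SE) and without 1 control library (blue triangles). Arc is at -0.99 with 4 libraries, -0.67 without shLAC replicate 1 and -1.31 without shLAC replicate 2, and Egr3 and Egr4 lie above 0 without shLAC replicate 1.

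**Figure D4:**
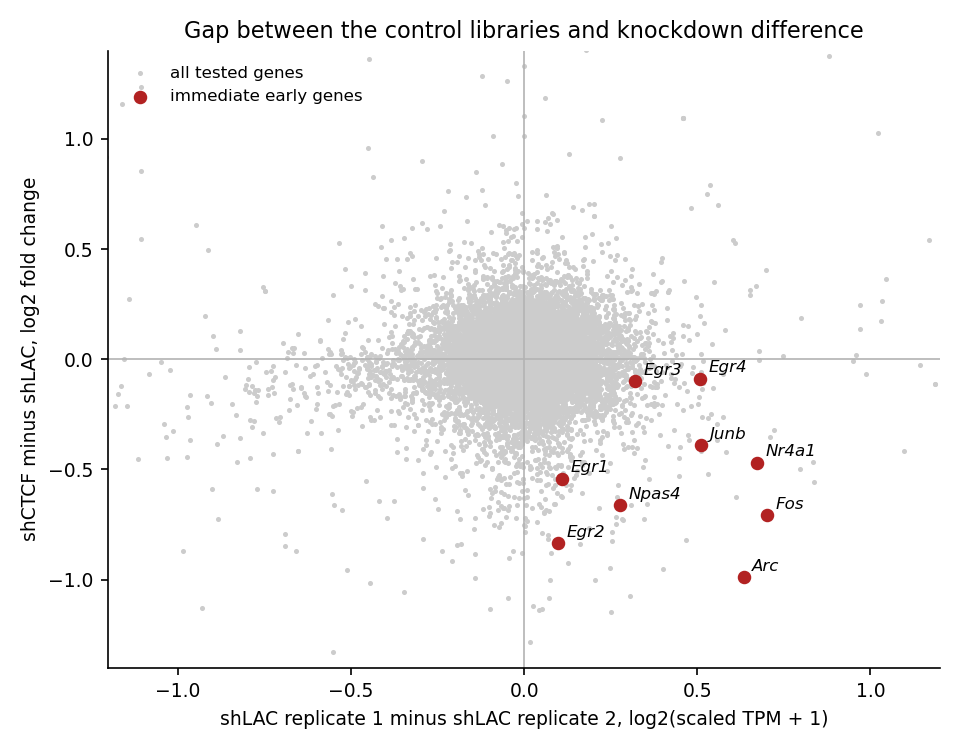
Gap between the control libraries (horizontal, shLAC replicate 1 minus replicate 2) against the knockdown fold change (vertical, shCTCF minus shLAC), both on log2(scaled TPM + 1), for all tested genes in grey and the 9 tested members in red. The axes leave out 196 of 12816 genes. All 9 members lie right of and below 0. Both axes use the control libraries, so the measures are not independent.

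Markers of some cell types moved with the groups. Summed over 10 astrocyte markers, the level was 112 and 88.9 scaled TPM in shCTCF, against 140.5 and 117 scaled TPM in shLAC, and 9 of 10 had a negative fold change, with 0 of 10 passing over all genes (3 lower at an unadjusted p below 0.05). In the protein-coding fit Aqp4, a water channel, and Slc1a3, a glutamate transporter, fell (limma adjusted p = 0.0196 and 0.0256). Aqp4 kept its call without each library (limma adjusted p up to 0.0476), whereas Slc1a3 lost it without shCTCF replicate 2 (limma adjusted p = 0.0721). The 9 tested of 10 excitatory neuron markers summed, with the untested one, to 289 and 281 scaled TPM in shCTCF, against 246 and 256 in shLAC, and 0 of 9 passed in either fit (0 lower and 4 higher at an unadjusted p below 0.05 in each). The 8 pan-neuronal markers summed to 1190 and 1169 scaled TPM in shCTCF, against 1131 and 1168 in shLAC, where Syn1 and Rbfox3 rose in the protein-coding fit (limma adjusted p = 0.0256 and 0.04999). Both calls were lost without shCTCF replicate 1 (limma adjusted p = 0.0779 for Syn1 and 0.179 for Rbfox3) or shCTCF replicate 2 (limma adjusted p = 0.135 for Syn1 and 0.1205 for Rbfox3). Inhibitory neuron markers summed to 269 and 269 scaled TPM in shCTCF, against 271 and 259 in shLAC, with 0 of 10 tested passing in either fit (2 lower and 1 higher at an unadjusted p below 0.05 in each). The 6 fibroblast markers summed to 2.32 and 1.90 scaled TPM in shCTCF, against 3.35 and 3.16 in shLAC, where Dcn, a matrix proteoglycan gene and the 1 tested, fell in the protein-coding fit (limma adjusted p = 0.0258) but not without shCTCF replicate 1 (limma adjusted p = 0.0561) or shCTCF replicate 2 (limma adjusted p = 0.132). The 9 oligodendrocyte lineage markers summed to 84.0 and 75.9 scaled TPM in shCTCF, against 82.7 and 69.5 in shLAC. Of these, 7 were tested, 7 had a positive fold change and 0 passed limma in either fit. The 7 proliferation markers summed to 46.7 and 50.4 scaled TPM in shCTCF, against 47.7 and 51.2 in shLAC. Here 0 of 7 passed in either fit (1 lower at an unadjusted p below 0.05 in each). The part of the marker shifts in the values of the immediate early genes was not tested.

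Other lists of the same response had medians closer to 0. Of 28 further rapid-response genes, 20 were tested, 12 had a negative fold change and 0 passed limma over all genes (6 lower and 1 higher at an unadjusted p below 0.05), with a median of -0.07. In the protein-coding fit 1 fell, Klf10, a TGF-beta-inducible factor, at 6.57 and 6.16 scaled TPM in shCTCF, against 9.37 and 8.47 scaled TPM in shLAC (log2 fold change -0.42, SE 0.0677, limma adjusted p = 0.0256). It did not pass without shCTCF replicate 1 (limma adjusted p = 0.0594) or replicate 2 (limma adjusted p = 0.125). Of 14 delayed activity-regulated genes, such as Scg2 and Plk2, 11 had a negative fold change, 0 passed over all genes (2 lower at an unadjusted p below 0.05) and 0 in the protein-coding fit, with a median of -0.17. Scg2, which encodes a granin, was at 102 and 75.0 scaled TPM in shCTCF and 92.5 and 71.9 scaled TPM in shLAC. Plk2, a kinase gene, was at 47.5 and 46.9 scaled TPM in shCTCF and 55.1 and 48.9 scaled TPM in shLAC.

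Among 29 tested kinases and transcription factors that act upstream, 1 fell and 0 rose over all genes (2 lower and 5 higher at an unadjusted p below 0.05). Of the 29, 8 had a negative and 21 a positive fold change, with a median of 0.05. The gene that fell was Mrtfb, a coactivator of SRF, at 12.6 and 12.9 scaled TPM in shCTCF, against 20.1 and 20.4 scaled TPM in shLAC. Its log2 fold change was -0.63 (limma SE 0.0436, adjusted p = 0.0295). That call was lost without each library in turn (limma adjusted p between 0.0587 and 0.200), while in the protein-coding fit it held without each (limma adjusted p up to 0.0287). As deposited it did not pass (limma adjusted p = 0.440). There 1 of the 29 genes rose, where 1.92% of all tested genes did. It was Rps6ka5, chosen after its values were seen (limma adjusted p = 0.00170). Rps6ka5 was at 3.81 and 4.44 scaled TPM in shCTCF, against 2.02 and 2.79 in shLAC. It did not pass over all genes on scaled values (limma adjusted p = 0.132) or in the protein-coding fit (limma adjusted p = 0.0509). Srf itself, chosen after its values were seen, was at 6.52 and 6.64 scaled TPM in shCTCF and 7.59 and 6.62 scaled TPM in shLAC (limma adjusted p = 0.535), and Creb1, chosen likewise, at 11.6 and 10.8 in shCTCF and 9.75 and 9.90 in shLAC (limma adjusted p = 0.216).

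Of 15 genes for partners and turnover of the Arc protein, 1 rose and 0 fell over all genes, and 14 had a positive fold change, with a median of 0.09. Gsk3b, a kinase that marks Arc protein for degradation, was at 34.5 and 34.9 scaled TPM in shCTCF, against 26.0 and 26.4 scaled TPM in shLAC (log2 fold change 0.39, SE 0.0415, limma adjusted p = 0.0456). It did not pass as deposited (limma adjusted p = 0.189) or without any 1 library (limma adjusted p between 0.102 and 0.327), and in the protein-coding fit it passed with all 4 libraries (limma adjusted p = 0.0105) but not without shCTCF replicate 2 (limma adjusted p = 0.0629). Rnf216, chosen after its values were seen, encodes a ubiquitin ligase for Arc and rose in the protein-coding fit (limma adjusted p = 0.0265) but did not pass over all genes (limma adjusted p = 0.0759). Its call was lost without shCTCF replicate 1 (limma adjusted p = 0.0987) or shCTCF replicate 2 (limma adjusted p = 0.133). Of 9 partners and corepressors of the encoded factors, 0 passed over all genes (0 at an unadjusted p below 0.05) or in the protein-coding fit (1 lower at an unadjusted p below 0.05). Arnt2, the dimer partner of NPAS4, was at 19.2 and 19.5 scaled TPM in shCTCF and 18.1 and 18.8 scaled TPM in shLAC. Hdac5, a histone deacetylase gene, was at 13.9 and 14.2 in shCTCF and 14.1 and 13.8 in shLAC.

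**Figure D5:**
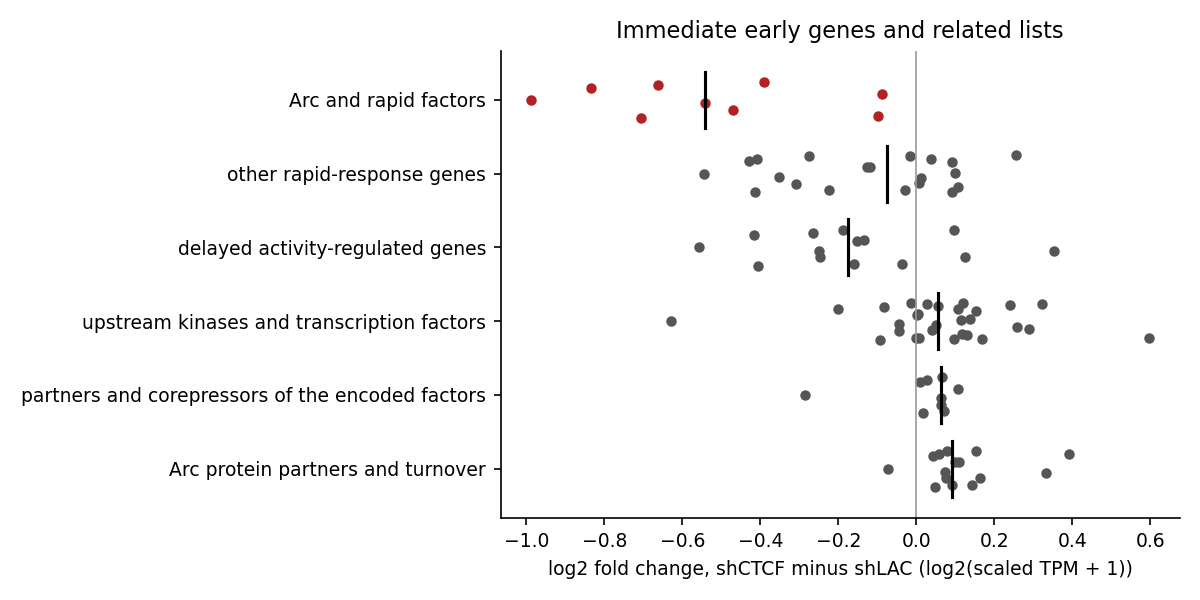
Log2 fold change, shCTCF minus shLAC on log2(scaled TPM + 1), of each tested gene in 6 lists, with a line at the list's median; vertical scatter within a row has no meaning. The medians run from -0.54 for Arc and the rapid factors to 0.09 for the Arc protein partners.

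The genes whose profile over the 4 libraries was nearest to that of Arc were sought among 9701 others averaging 2 TPM or more. The measure was the Euclidean distance between centred log2(scaled TPM + 1) values, over 4 libraries that all genes share. Fos was the nearest of all, at 0.299, followed by Fmc1, Fbxo2 and Rex1bd at 0.363 to 0.387. Egr2 ranked 11, Nr4a1 30, Egr1 70, Junb 73 and Npas4 74, whereas Egr4 ranked 904 and Egr3 1042. Nearest to Egr2 were Fbxo2, Rex1bd, Thap12 and Etfrf1, at 0.157 to 0.193, with Egr1 at rank 27. From Egr2, Npas4 ranked 63, Arc 106, Fos 120, Junb 217 and Nr4a1 348, whereas Egr3 ranked 2873 and Egr4 4129. Nearest to Egr1 were Nudt2, Ctnnd1, Nrp1 and Rspo2, at 0.146 to 0.176, with Egr2 at rank 78. From Egr1, Npas4 ranked 131 and Junb 158, but Fos 927, Nr4a1 1148, Egr3 3333, Arc 4643 and Egr4 5032. With 4 values a gene, many profiles come close, and these ranks are a description.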

How the data were processed

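Per the submitters' processing notes, the software was RSEM 1.2.28 and CASAVA with mm10; the annotation release was not given in the sources used here, nor was strandedness. The authors deposited TPM per Ensembl gene, 1 table a library. Depth is unknown, so no counting interval is given. Names, positions and transcripts came from GENCODE vM21 on GRCm38, the assembly of mm10, which named 37060 of 37437 identifiers.

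After the filter (1 TPM in 2 libraries or more), median-ratio scaling and a log2(TPM + 1) transform, limma 3.58.1 (R 4.3.3) was run without covariates, with a prior trended on level, and p-values were adjusted by Benjamini-Hochberg over all 12816 genes at 0.05. On deposited values and with the fixed total over protein-coding genes the prior's degrees of freedom were infinite, so those p-values ignore a gene's own spread. Only the fit over all genes was run on simulated libraries, with noise drawn independently for each gene.

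The members, lists and settings were chosen with earlier results of these data known. Genes named beside the members were, per list, those called over all genes or else in the protein-coding fit, or else the 2 of highest mean, plus for Arc, Egr1 and Egr2 the 4 nearest profiles without predicted loci. Others are marked as chosen after their values were seen. Alternatives were other scalings and filters, a pseudocount of 0.1, an untrended prior, blocking on replicate number, and dropping each library. Added after seeing the data were the protein-coding fit without each library and that fit without 12 satellite-like genes, which are predicted coding genes over 10 times higher in shLAC replicate 2 than in replicate 1 and abundant there.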

Additional observations from a re-analysis of the deposited data

How the results depend on the processing

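Over 17 alternative settings the 9 tested members gave 151 fold changes. Of these, 143 were lower in shCTCF and 8 higher, the 8 being those of Egr3 and Egr4. The settings reuse the same 4 libraries, so these fold changes are not independent of each other. With all 4 libraries over all genes, 87 genes were called lower and 47 higher, with 0 members, 1 gene of the related lists lower and 1 higher, and 7 members apart. With deposited values 246 genes were called higher, 2 members lower, 2 members stayed apart, and Egr3 and Egr4 turned to 0.093 and 0.065. A fixed total over protein-coding genes, which moved the median of all genes by 0.33, left 22 genes called lower, 0 members apart and 0 related genes called in either direction, with Egr3 at 0.28 and Egr4 at 0.20. That total includes the satellite-like genes, and its scaling factor was 1.30 for shLAC replicate 2 and 0.884 for shLAC replicate 1. A mean of at least 5 TPM left 38 lower and 21 higher with 0 related genes higher, no filter gave 36 and 87, and an untrended prior called 0 related genes higher. Protein-coding genes alone gave 328 lower and 242 higher, with 2 members lower, 2 related genes lower and 2 higher. Without the satellite-like genes this was 392 lower and 291 higher, with 3 members lower, 2 related genes lower and 3 higher. The cause was not tested.

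Leaving out 1 library, all genes called ranged between 7 and 64 lower and 2 and 42 higher, members called lower between 0 and 1, members apart between 7 and 9, their median between -0.81 and -0.35, and related genes called were 0 in both directions. In the protein-coding fit these ranges were 92 to 596 lower, 42 to 485 higher, 1 to 8 members lower, 7 to 9 apart, medians of -0.80 to -0.35, and 1 to 16 related genes lower and 0 to 5 higher. The most members were called without shLAC replicate 2 (8), then without shLAC replicate 1 (4), shCTCF replicate 2 (3) and shCTCF replicate 1 (1). Genes called there, lower and higher, were 542 and 441 without shLAC replicate 2 and 176 and 88 without shCTCF replicate 1. Without shLAC replicate 1, Egr3 and Egr4 turned to 0.064 and 0.17 in both fits, and without shLAC replicate 2 Egr3 was at -0.26. With 1 library left in a group, groups lie apart more often, so the share given for all 4 libraries does not carry over. The share of all tested genes apart was not taken in these fits or with the fixed total.

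With a replicate block, 9 genes were called lower and 5 higher, 0 of them members and 0 in the related lists. The Ctcf call was lost with the block (limma adjusted p = 0.0572), with no filter (limma adjusted p = 0.0692) and with the fixed protein-coding total (limma adjusted p = 0.807). Deviations of same-numbered libraries correlated at r = 0.0817 over 12816 genes and 0.261 over 11291 protein-coding genes, and with 2 pairs the numbers were not taken to pair the samples. TPM keeps no depth, so the counting error behind low genes such as Fosb is unknown.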
